A study of Mus musculus with 7 samples.

Results

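DP thymocytes of L-DKO mice were compared with WT DP thymocytes by RNA-Seq. The comparison took 3 of the 6 libraries that have a column in the table, out of 7 labelled samples. They are L-DKO replicates 1 and 2 and the WT library, each from 1 mouse. The libraries were taken by their genotype label, and all 12063 genes that passed a filter on low values were tested. The control is labelled wild type (WT). L-DKO stands for Id2 f/f Id3 f/f LckCre+, in which loxP-flanked Id2 and Id3 are deleted by a Cre driven by the Lck promoter, active in the T lineage from the early thymocyte stages on. Mice were B6/129 hybrids aged 4 to 5 weeks, littermates were used as far as the methods say, and the pTα gene is intact by label in both groups. The sorted cells were TCRγδ- CD4+ CD8+. The study's text adds CD1d-tetramer negativity to this sort, which the labels do not state. The remaining libraries, pTαKO replicate 2 and LP replicates 1 and 2 (L-DKO on a background labelled pTα-deficient), helped to estimate the spread and are shown beside the results. Ptcra, the pTα gene, read 5.75 in the library labelled pTαKO and 5.34 and 5.87 in LP, not below the 5.06 of WT. No source used here says which stretch of the gene the deletion removes, so its level does not check these labels. The design asks which genes of DP cells differ when Id2 and Id3 are lost.

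Id2 and Id3 are small helix-loop-helix proteins that lack a DNA-binding region. They pair with E proteins, such as the E2A products of Tcf3 and HEB, the product of Tcf12, and keep them from binding E-box sequences in DNA. In developing T cells E proteins hold thymocytes at the DP stage and activate genes of receptor rearrangement, while signals of the pre-TCR and TCR raise Id3 and so lower E protein activity. The DP stage is also where invariant NKT (iNKT) cells are selected on CD1d presented by other DP cells, and mice without Id proteins are known for expanded innate-like T cells.

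Expression is given as log2(FPKM + 1), a scale on which 1 unit is a 2-fold difference for abundant genes and less than the true fold for genes of low FPKM. FPKM is a gene's fragment count divided by its exon length and by the size of the library. The number of reads behind each value is unknown. The 3 libraries had nearly equal medians (3.95 in WT, 3.96 and 4.00 in L-DKO), but the 20 most abundant entries took 30.1% of all FPKM in WT, 62.4% in each L-DKO library and 53.7% to 72.7% in the pTαKO and LP libraries, so that WT stood apart from all 5 others. Between 73 and 115 genes per library were listed at 0. Across genes, WT correlated with the L-DKO libraries at r = 0.92 and 0.90 and these with each other at 0.91, so that L-DKO replicate 1 was as close to WT as to replicate 2. The DP label held against its markers. Cd4 stood at 9.18 in WT and 9.38 and 9.55 in L-DKO, Cd8a at 9.57 against 9.56 and 9.54, and Dntt, the polymerase that adds bases at receptor junctions, at 9.68 against 9.56 and 9.61. The Y-linked gene Ddx3y was expressed in all 3 libraries (4.36, 5.14 and 4.81). Markers of other cells were read as summed FPKM. The 10 measured of 19 B cell markers summed to 391 in WT and 314 and 384 in L-DKO, and the 21 measured of 30 myeloid markers to 306 against 361 and 365. Of the stromal list, 6 of 22 genes were measured (95.2 against 123 and 87.1), without Foxn1 or Krt5. The 6 measured of 14 erythroid and platelet markers summed to 731 in WT, 715 in L-DKO replicate 1 and 3330 in L-DKO replicate 2, and of these Pf4 was at 0 in WT. In sorted bulk samples, fewer cells of a type and less RNA per cell cannot be told apart.

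The targeted genes were low in L-DKO. Id3 read 6.22 in WT but 1.91 and 3.32 in L-DKO replicates 1 and 2. Id2 read 3.56 in WT and 1.00 and 0.24 in L-DKO. Both L-DKO libraries lay below WT for both genes, by more than 2-fold, and transcript remained listed in each. The differences (L-DKO mean minus WT, ± SE of the limma model) were -3.61 ± 0.79 for Id3 (limma adjusted p = 0.928 over all genes) and -2.94 ± 0.66 for Id2 (adjusted p = 0.956), so that the test called neither. The E protein genes differed less. Tcf3 read 7.17 in WT and 6.87 and 6.73 in L-DKO, below WT in both libraries. Tcf4, an E protein gene of lower level in these cells, read 4.28 in WT and 4.89 and 5.43 in L-DKO, above WT in both. Tcf12, Id1 and Id4 had no value here. In GRCm38.p6, Id2 lies on chromosome 12 from 25093799 to 25096092 and Id3 on chromosome 4 from 136143822 to 136145392.

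Because Id proteins act by keeping E proteins off E-boxes, the sequences before the start of 3 genes that were higher in both L-DKO libraries are shown as examples, each with the 250 bases before the start that the RefSeq promoter table gives. For Dtx1 this start lies within the annotated gene (chr5:120680203-120711867), so that most of its window does too. Ptcra encodes pTα and is a known E protein target, Gadd45g encodes a growth arrest protein, and Dtx1 is a Notch target. Capitals mark the E-box letters CAGCTG, and CAGGTG on either strand was also searched. The motifs do not overlap each other.
Ptcra (GRCm38.p6, chr17:46763713-46763962, minus strand): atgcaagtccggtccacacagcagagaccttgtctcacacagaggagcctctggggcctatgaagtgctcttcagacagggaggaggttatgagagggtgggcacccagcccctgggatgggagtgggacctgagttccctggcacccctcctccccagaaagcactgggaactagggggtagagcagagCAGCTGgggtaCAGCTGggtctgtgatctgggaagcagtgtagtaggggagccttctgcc
Gadd45g (GRCm38.p6, chr13:51846425-51846674, plus strand): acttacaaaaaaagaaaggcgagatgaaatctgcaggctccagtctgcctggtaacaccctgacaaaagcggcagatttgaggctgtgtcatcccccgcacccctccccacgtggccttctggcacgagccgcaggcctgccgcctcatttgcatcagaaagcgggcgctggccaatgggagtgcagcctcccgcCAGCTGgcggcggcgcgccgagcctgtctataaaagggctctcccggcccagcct
Dtx1 (GRCm38.p6, chr5:120711670-120711919, minus strand): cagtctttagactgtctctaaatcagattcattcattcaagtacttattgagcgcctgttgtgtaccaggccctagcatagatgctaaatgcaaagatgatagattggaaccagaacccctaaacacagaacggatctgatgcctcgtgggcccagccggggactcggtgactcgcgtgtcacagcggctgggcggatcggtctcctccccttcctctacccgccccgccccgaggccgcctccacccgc
The Ptcra window holds CAGCTG at 60 and 49 bases before the start, and the Gadd45g window at 55 bases before it. The Dtx1 window holds neither motif. Of all 27025 promoters in the table, 12.9% hold CAGCTG and 17.1% hold CAGGTG in the same window. These are descriptions of letters, and they give no binding. Of 23 measured E protein target genes with a promoter in the table, Ptcra was the 1 with CAGCTG. Too few genes of any group had a promoter for a share to be read (23 of 29 target genes, 105 of the 204 genes and 144 of the 261 genes at least 2-fold above or below WT), so that such a check is void.

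Few genes passed the test. With limma on all 6 libraries, 2 genes were called higher in L-DKO and 3 lower (adjusted p under 0.05), which is 0.0166% and 0.0249% of the genes tested and 0.0414% together. At an unadjusted p under 0.05 there were 291 higher (2.41%) and 233 lower (1.93%), together 4.34% of all genes. WT had 1 library and was assumed to vary like the L-DKO and LP pairs. Every one of the 5 calls was lost when either L-DKO library was left out (without replicate 1, 1 higher and 1 lower gene were called, neither of them among the 5, and without replicate 2 none, with 483 genes at unadjusted p under 0.05). Without either LP library 8 genes were called higher and 5 lower, with the 5 among them. By size alone, both L-DKO libraries lay at least 2-fold above WT for 204 genes (1.69%) and at least 2-fold below it for 261 (2.16%). Requiring the fold of replicate 2 alone gave 685 and 771 genes, and of replicate 1 alone 519 and 570. Of the 204 and 261 genes, 60 and 89 were unnamed gene models, 37 and 38 had a value of 0 in WT or L-DKO, and 68 and 130 stayed under 3 in all 3 libraries. Without regard to size, both L-DKO libraries were above WT for 34.9% of all genes and below it for 29.7%. These shares are the background against which the lists below are read. The lists were chosen with earlier results of these data known, so a share beyond the background is no independent evidence.

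**Figure D1:**
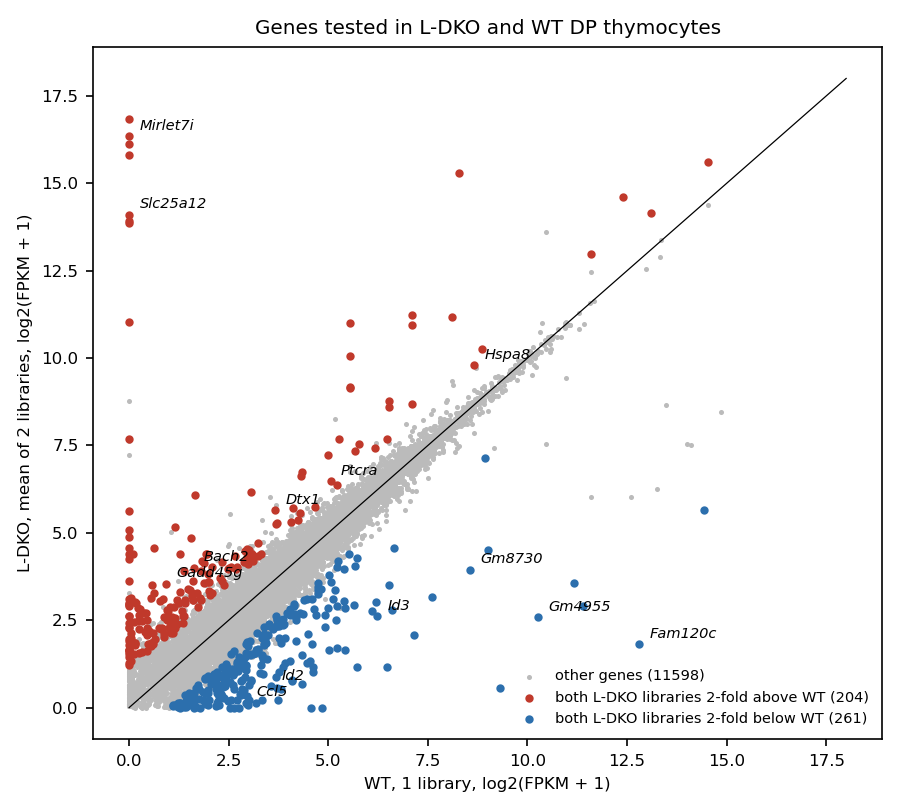
Each point is 1 gene, with the WT library on the x axis and the mean of the L-DKO libraries on the y axis, both as log2(FPKM + 1). Most genes lie along the line of equality, the 204 and 261 genes beyond 2-fold in both libraries are coloured, and the called genes Mirlet7i, Slc25a12, Fam120c, Gm8730 and Gm4955 stand far from the line.

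The 2 genes called higher were at 0 in WT. Mirlet7i, the let-7i microRNA gene, was listed at 0 in WT and at 16.84 and 15.87 in L-DKO (limma adjusted p = 0.0087). Slc25a12, the gene of a mitochondrial aspartate and glutamate carrier, was listed at 0 in WT and at 14.09 and 14.12 in L-DKO (limma adjusted p = 0.0425). Both were also at 0 in pTαKO and between 14.06 and 16.82 in the LP libraries. An entry listed at 0 gives no fold, and a 0 can be a failed estimate: the mitochondrial genes mt-Atp6, mt-Cytb and mt-Nd6, which every cell uses, were listed at 0 in LP replicate 1 and between 7.63 and 14.66 in the other libraries. Slc25a12 has a second entry in the table that read 5.07 in WT and 5.13 and 5.32 in L-DKO, so the symbol as a whole does not stand at 0 in WT. The Mirlet7i entry corresponds to a hairpin of 85 bases on chromosome 10 (122985640 to 122985724). FPKM divides by exon length, so few fragments on so short an entry can give a high value. The value is that of the hairpin entry, and the level of the mature strand was not measured. The mature strand of let-7i is shown only because let-7 microRNAs share the seed, bases 2 to 8, given in capitals.
let-7i-5p (RefSeq, GRCm38.p6): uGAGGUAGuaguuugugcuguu
Other entries had a similar pattern, with 0 in WT and high values in L-DKO but without passing. Mir7j, for one, read 0 in WT, 13.91 and 13.94 in L-DKO, 13.90 in LP replicate 1, and 0 in pTαKO and LP replicate 2. Gm22175, AC161570.1 and Gm25063 were also at 0 in WT and between 15.29 and 17.36 in L-DKO, but were at 18.26, 16.05 and 15.24 in pTαKO and at 0 in 1 LP library each.

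The 3 genes called lower had high values in WT. Fam120c, an X-linked gene, read 12.79 in WT and 2.10 and 1.55 in L-DKO (-10.97 ± 0.66, limma adjusted p = 0.0425). Gm4955 read 10.27 in WT and 2.79 and 2.38 in L-DKO (-7.68 ± 0.39, limma adjusted p = 0.0293). For both, WT stood apart from all 5 other libraries, pTαKO and LP included, which lay between 1.33 and 3.63. Gm8730, annotated as a pseudogene and so uncertain where it shares sequence with its parent gene, was different. It read 8.55 in WT and 3.90 and 4.00 in L-DKO (-4.60 ± 0.17, limma adjusted p = 0.0087), and 7.89 in pTαKO and 8.10 and 7.98 in LP, so that L-DKO alone was low.

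Among genes with no value of 0 in WT or L-DKO, the 15 with the widest gap above WT had varied functions and include Gadd45g, Bach2 and Dtx1. None passed the test, and the lowest adjusted p of any gene not called was 0.0566 (limma). Gadd45g, a stress-responsive protein that slows the cell cycle, read 0.93 in WT and 3.43 and 3.67 in L-DKO (2.61 ± 0.41). Bach2, a repressor that restrains effector programmes in lymphocytes, read 1.62 in WT and 4.31 and 3.71 in L-DKO (2.39 ± 0.39). Dtx1, a ubiquitin ligase of the Notch pathway, read 3.67 in WT and 5.59 and 5.73 in L-DKO (1.99 ± 0.23). For these 3 genes the L-DKO libraries differed from each other by far less than from WT.

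The same held for several genes of other functions. Cyp26b1, which breaks down retinoic acid, read 0.23 in WT and 2.76 and 2.22 in L-DKO. H2-T3, the thymus leukaemia antigen, a non-classical MHC class I protein of thymocytes, read 1.38 in WT and 4.26 and 3.56 in L-DKO. Tnfrsf12a, the receptor of the cytokine TWEAK, read 0.79 in WT and 2.82 and 3.30 in L-DKO. Their differences were 2.26 ± 0.43, 2.54 ± 0.41 and 2.27 ± 0.49. That both L-DKO libraries lay above WT follows from the rule that chose these genes. Itsn1, an endocytic scaffold, Kcnf1, a potassium channel subunit, and Cntnap1, an adhesion protein best known from axons, were below 0.6 in WT and between 2.16 and 3.29 in L-DKO. Sertad4 read 3.06 in WT and 6.74 and 5.59 in L-DKO, and Gtf2ird2 1.61 against 3.72 and 3.53. Trmt44, a tRNA methyltransferase gene, was less even, with 0.05 in WT and 2.36 and 3.89 in L-DKO. In pTαKO, labelled without Id deletion, H2-T3 read 3.60, Itsn1 2.14, Sertad4 6.55 and Gtf2ird2 3.37. For 4 of the 15 genes (Dtx1, H2-T3, Sertad4 and Dynlt1b) WT was at least 2-fold below all 5 other libraries. For 6 of the 15, all 4 libraries with Id deletion were at least 2-fold above WT and pTαKO.

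Some entries of this group share sequence with near copies, and their values are uncertain. H2-Q3 had the widest gap, from 0.14 in WT to 2.81 and 3.22 in L-DKO, but its second entry lay on both sides of WT, with 1.16 in WT and 0.13 and 1.54 in L-DKO (-0.32 on average). Dynlt1b, 1 of a cluster of dynein light chain copies, read 4.99 in WT and 7.21 and 7.25 in L-DKO. In pTαKO, Dynlt1b read 8.59 and the first H2-Q3 entry 2.77. Rps3a3 read 5.28 in WT and 7.11 and 8.27 in L-DKO, and its copy Rps3a2 5.76 against 7.11 and 7.99. Rps3a1, the main gene of this ribosomal protein, ran the opposite way, from 9.15 in WT to 8.26 and 6.61 in L-DKO. Fragments of such copies can be assigned to 1 or the other in quantification. The last of the 15 genes, Rps3a3, had a gap of 1.84, and the next below the limit, Clec10a, 1.82.

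**Figure D2:**
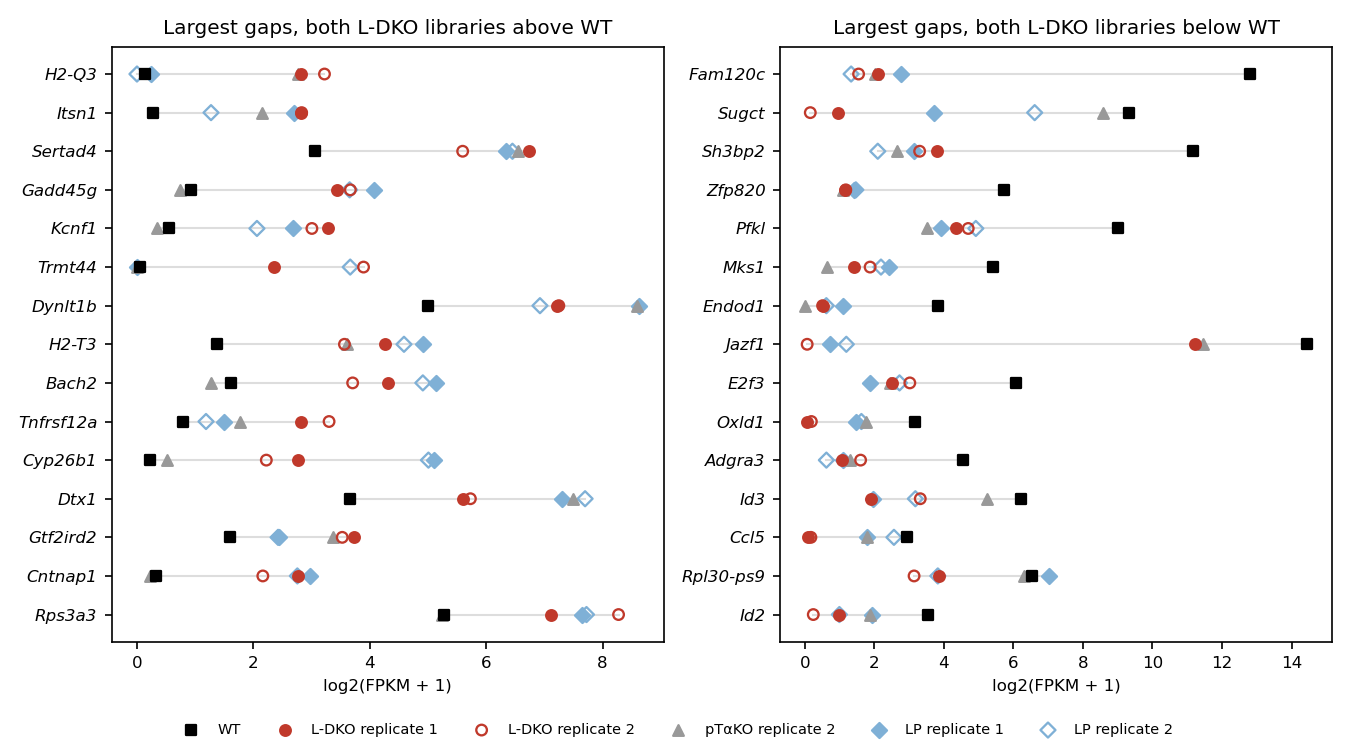
Each line is 1 gene and each symbol 1 library, with log2(FPKM + 1) on the x axis, for the 15 genes whose L-DKO libraries lay farthest above WT (left) and farthest below it (right). On the left, Gadd45g, Kcnf1, Bach2, Cyp26b1, Cntnap1 and Rps3a3 have the LP libraries on the L-DKO side and pTαKO near WT. On the right, WT stands alone for 11 of the 15 genes.

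The 15 genes with the widest gap below WT hold both targeted genes, but in 11 of the 15 WT was at least 2-fold above all 5 other libraries. Sh3bp2, an adaptor of immune receptor signalling, read 11.17 in WT and 3.81 and 3.30 in L-DKO, and between 2.10 and 3.13 in the 3 other libraries. Pfkl, a subunit of the glycolytic enzyme phosphofructokinase, read 9.01 in WT, 4.35 and 4.70 in L-DKO and 3.52 to 4.92 elsewhere. E2f3, a transcription factor of the cell cycle, read 6.09 in WT, 2.52 and 3.02 in L-DKO and 1.86 to 2.72 elsewhere. Zfp820, Mks1, Endod1 and Adgra3 had the same pattern, with 3.82 to 5.72 in WT and 0.51 to 1.88 in L-DKO. Oxld1 read 3.17 in WT, 0.06 and 0.19 in L-DKO and 1.46 to 1.77 elsewhere, so WT was the highest and L-DKO the lowest. Over all genes, WT was at least 2-fold above each other library for 38 genes, all among the 261, and below each for 34, all among the 204. For Jazf1 the L-DKO libraries themselves parted, with 14.44 in WT and 11.23 and 0.07 in L-DKO.

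In Sugct, Ccl5 and Rpl30-ps9 WT was not alone. Sugct, a mitochondrial enzyme gene, read 9.32 in WT and 0.97 and 0.16 in L-DKO, with 8.59 in pTαKO and 3.73 and 6.61 in LP. Ccl5, a chemokine of effector and memory T cells, read 2.93 in WT and 0.11 and 0.17 in L-DKO (-2.79 ± 0.55), with 1.79 to 2.56 in the other libraries. The pseudogene Rpl30-ps9 read 6.53 in WT and 3.86 and 3.14 in L-DKO. The last of the 15, Id2, had a gap of 2.56, and the next, Celf3, 2.50.

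Of the E protein target genes, more were above WT than below it in L-DKO, but other lists tied to E proteins did not share this. Of 38 listed genes 29 were measured, and 16 of them (55.2%) were above WT in both L-DKO libraries against 34.9% of all genes, while 5 were below. The median difference over the list was 0.13, beside 0.02 for all genes, and 4 members had an unadjusted p under 0.05, all of them higher. The median of the same list in LP minus pTαKO was -0.04. Among the innate-like genes that the study lists as bound by E2A, 28 of 67 measured were above WT and 20 below, with a median of 0.01. Its list of genes high in innate-like cells had 34 of 84 above and 24 below, with a median of -0.002. Both are the study's own lists and no independent evidence of a direction. The E protein target list was chosen with earlier results of these data known, so it is no independent evidence either. Ptcra, the partner of TCR beta in the pre-TCR, read 5.06 in WT and 6.35 and 6.62 in L-DKO (1.43 ± 0.29). Spib, a transcription factor of early thymocytes and B cells, read 0.80 in WT and 2.54 and 1.95 in L-DKO. Gfi1b, a repressor of early blood progenitors, read 0.06 in WT and 1.02 and 1.14 in L-DKO. Socs3, an inhibitor of cytokine signalling, read 3.73 in WT and 5.01 and 4.45 in L-DKO (0.99 ± 0.29). Ptcra was higher in L-DKO than in any of the 4 other libraries, whereas Spib, Gfi1b and Socs3 were higher still in pTαKO and LP. Cdkn1a, an inhibitor of the cell cycle, was below WT in both L-DKO libraries (1.78 against 1.02 and 0.96).

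Genes of the double-negative (DN) stage, the step before DP, had the highest median of the lists with at least 10 measured members. It was 0.33 over 18 of 28 genes, with 11 above WT in both L-DKO libraries and 4 below, but it ran from 0.09 to 0.93 over the alternative settings, and the list's median in LP minus pTαKO was -0.21. Dtx1, Ptcra and Spib led this list too, followed by Notch3, a Notch receptor of the DN stage, with 4.22 in WT and 5.92 and 5.20 in L-DKO (1.34 ± 0.33). Notch3 has 4 further entries of lower level in the table, which went in both directions. The Notch pathway as a whole was near the background. Of its 23 measured genes, 8 were above WT in both libraries (34.8%, as in all genes) and 4 below. Hes1, the classical Notch target, read 0.97 in WT and 1.66 and 0.55 in L-DKO, and Notch1 0.46 against 0.85 and 0.53. Il2ra, the IL-2 receptor chain that marks DN cells, read 1.81 in WT and 3.44 and 2.57 in L-DKO. It read 5.01 in pTαKO and 3.31 and 3.76 in LP, and Notch3 6.56 in pTαKO and 6.34 in each LP library. For both genes WT was the lowest library and pTαKO, labelled without Id deletion, the highest.

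**Figure D3:**
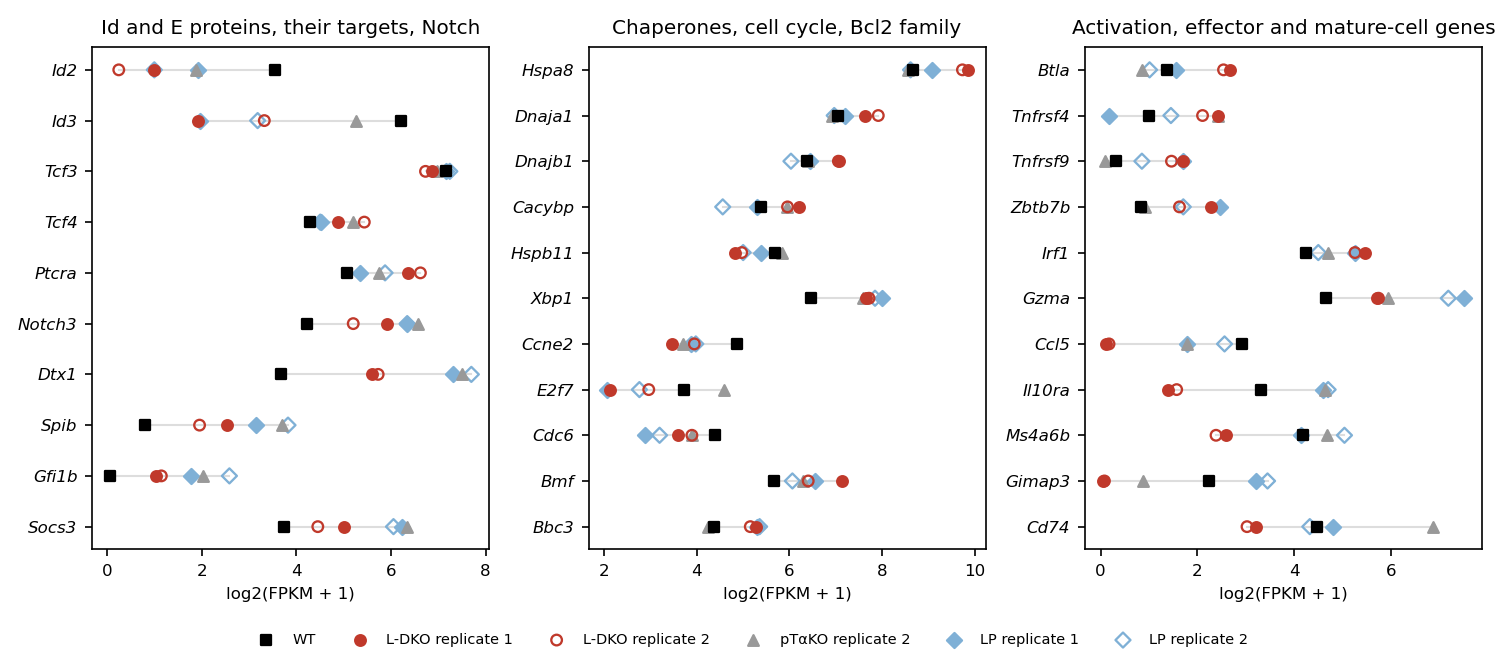
Each line is 1 gene and each symbol 1 library, with log2(FPKM + 1) on the x axis. Id2 and Id3 lie to the left of WT in both L-DKO libraries, Ptcra, Hspa8 and Btla are highest in L-DKO, and Il10ra, Ccl5, Gimap3 and Ms4a6b are lowest there.

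The iNKT selection list had 20 of its 33 measured genes (60.6%) above WT in both L-DKO libraries and 3 below. Its median difference was 0.21, and 3 members had an unadjusted p under 0.05, all higher. Cd1d2, a copy of the CD1d gene annotated as a transcribed pseudogene, read 3.02 in WT and 4.08 and 4.96 in L-DKO. Its value is uncertain where it shares sequence with Cd1d1. Cd1d1, the gene whose product presents lipids to iNKT cells, was level (5.44 against 5.42 and 5.38). Lmo4, an adaptor of transcription complexes, read 5.34 in WT and 6.15 and 6.22 in L-DKO (0.84 ± 0.23). Mef2d, a transcription factor, read 6.90 in WT and 7.35 and 7.30 in L-DKO (0.42 ± 0.15). Zbtb16, the gene of PLZF, the master factor of innate-like T cells, was near the floor, with 0.03 in WT and 0.69 and 0.29 in L-DKO (0.46 ± 0.60). The groups did not overlap there, but the difference was smaller than its SE. Cd44, an adhesion receptor of memory-type cells, read 1.58 in WT and 2.56 and 2.47 in L-DKO. Slamf1 and Slamf6, receptors that support iNKT selection, read 4.87 in WT against 4.46 and 4.64, and 5.93 against 6.09 and 6.08.

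Innate-like effector and NK genes did not share a direction. Of 40 genes only 14 were measured, with 6 above WT in both L-DKO libraries and 4 below. Gzma, a granule protease, read 4.66 in WT and 5.72 and 5.75 in L-DKO (1.07 ± 0.20), and 5.95 in pTαKO. S100a6, a calcium-binding protein of effector cells, read 1.13 in WT and 0.24 and 0.11 in L-DKO, and Ccl5 was the lowest member against WT. Follicular helper-like genes had 8 of 15 above and 2 below, led by Btla, an inhibitory receptor (1.37 in WT, 2.68 and 2.54 in L-DKO), and Tnfrsf4, the costimulatory receptor OX40 (1.00 in WT, 2.42 and 2.11 in L-DKO). Pdcd1, the gene of PD-1, was high mainly in replicate 2 (2.29 in WT, 2.62 and 4.63 in L-DKO).

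TCR signalling genes and the genes that report such signals had similar medians. Of the 36 measured proximal signalling genes, 22 (61.1%) were above WT in both L-DKO libraries and 8 below, with a median of 0.11 and none at an unadjusted p under 0.05. Syk, a kinase of the early thymocyte receptor, read 3.88 in WT and 4.36 and 4.19 in L-DKO, and Themis, an adaptor of positive selection, 7.50 against 7.20 and 7.16. Plcg1 led by gap (1.41 in WT, 2.65 and 3.49 in L-DKO), but it has 5 entries of unequal direction. Of 31 genes that report TCR signals, 17 (54.8%) were above and 8 below, with a median of 0.16. Tnfrsf9, the receptor 4-1BB, read 0.32 in WT and 1.70 and 1.47 in L-DKO. Zbtb7b, the ThPOK gene of the CD4 lineage, read 0.84 in WT and 2.29 and 1.63 in L-DKO. Nr4a1 and Egr3, the usual reporters of signal strength, were level (4.82 against 4.79 and 4.88, and 1.80 against 1.58 and 1.95), and Cd5 was a little above WT (7.05 against 7.37 and 7.45). Immediate early genes had 17 of 29 above and 4 below, among them Dusp6, a phosphatase induced by ERK signals (3.69 in WT, 4.90 and 4.4 in L-DKO).

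Heat shock chaperones were above WT in both L-DKO libraries for 28 of 45 measured genes (62.2%) and below for 8, with a median of 0.16. Hspa8, the constitutive HSC70 chaperone, was the only chaperone above WT by 2-fold in both libraries. It read 8.67 in WT and 9.85 and 9.73 in L-DKO (1.12 ± 0.25), and 8.56 to 9.08 in the other libraries, so L-DKO was the highest of all. Its J-domain partners followed. Dnaja1 read 7.05 in WT and 7.63 and 7.92 in L-DKO (0.72 ± 0.21), and Dnajb1 6.39 against 7.08 and 7.06 (0.68 ± 0.22). Cacybp, a cochaperone of ubiquitin ligases, read 5.39 in WT and 5.96 to 6.22 in L-DKO. The members did not all join in. Hspb11 read 5.69 in WT and 4.84 and 4.97 in L-DKO, Hspd1, the mitochondrial HSP60, 5.88 against 5.60 and 5.67, and Hsp90aa1 6.83 against 6.92 and 7.02. Hspa1a, the inducible HSP70, stayed low (0.32 in WT, 0.45 and 1.24 in L-DKO). Xbp1, a transcription factor of the unfolded protein response, read 6.47 in WT and 7.65 and 7.72 in L-DKO (1.22 ± 0.16), and 7.60 to 8.0 in all other libraries, so that here WT was the low one.

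Cell cycle and replication genes were below WT more than above it. Of 62 measured, 27 (43.5%) were below WT in both L-DKO libraries, against 29.7% of all genes, and 7 above. The 2 libraries disagreed in direction, with a median of -0.38 in replicate 1 and 0.05 in replicate 2. Ccne2, a cyclin of the entry into S phase, read 4.87 in WT and 3.48 and 3.95 in L-DKO (-1.15 ± 0.32). It read 3.70 in pTαKO and 3.88 and 3.98 in LP, so WT was the highest library. A second Ccne2 entry of lower level went the other way, with 0.45 in WT and 0.73 and 1.03 in L-DKO. E2f7, a repressor of the E2F family, read 3.74 in WT and 2.13 and 2.97 in L-DKO, and Cdc6, a licensing factor of replication, 4.41 against 3.60 and 3.90. Against this direction stood Ccnd3, the D cyclin of thymocyte expansion (10.32 in WT, 10.72 and 10.80 in L-DKO), and E2f2 (7.26 against 7.63 and 7.67), with L-DKO above all other libraries for both. Mki67, the proliferation marker, read 6.33 in WT and 6.0 and 5.90 in L-DKO. Histone genes had 35 of 58 members (60.3%) below WT in both libraries and 7 above, with medians of -0.59 and -0.18 in replicates 1 and 2. Hist1h2bj read 4.04 in WT and 2.02 and 0.67 in L-DKO.

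Among the Bcl2 family, which sets the threshold of cell death, 14 of 27 measured genes were above WT in both L-DKO libraries and 10 below. Bbc3, the death-promoting PUMA, read 4.37 in WT and 5.29 and 5.16 in L-DKO (0.85 ± 0.20), and Bmf, another BH3-only gene, 5.67 against 7.13 and 6.41 (1.1 ± 0.38). The survival genes Bcl2l1 and Mcl1 were nearly level (7.28 against 7.41 and 7.41, and 7.23 against 7.39 and 7.44). Interferon-stimulated genes had 22 of 50 above and 6 below, led by Irf1, a transcription factor of interferon responses, with 4.25 in WT and 5.47 and 5.26 in L-DKO (1.11 ± 0.36). Genes of ribosome biogenesis had 18 of 36 above and 5 below. Dkc1, which modifies ribosomal RNA, read 4.24 in WT and 5.13 and 5.07 in L-DKO.

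Several genes of mature T cells were low in L-DKO, while cytokine receptor and SOCS genes as a list were not (10 of 21 above WT in both libraries, 6 below, median 0.10). Il10ra, a chain of the IL-10 receptor, read 3.33 in WT and 1.40 and 1.57 in L-DKO (-1.84 ± 0.32), with 4.60 to 4.71 in pTαKO and LP, and its second entry had the same direction. Gimap3, a GTPase of T cell survival, read 2.25 in WT and 0.05 and 0.08 in L-DKO (-2.19 ± 0.47). Ms4a6b, a membrane protein of mature T cells, read 4.18 in WT and 2.60 and 2.39 in L-DKO (-1.69 ± 0.45). Ly6c1, a surface marker of mature and memory cells, read 2.48 in WT and 1.09 in each L-DKO library. For each of these 4 genes both L-DKO libraries were the lowest of the 6. Of the 19 measured markers of mature single-positive cells, 9 were below WT in both libraries and 6 above, and their summed FPKM was 1020 in WT and 794 and 878 in L-DKO. Ccr7, a marker of mature cells, went against the genes named above, with 1.5 in WT and 2.08 and 1.95 in L-DKO. The part of a smaller share of mature cells in these values was not tested.

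Markers of antigen-presenting and myeloid cells were mixed. Of the 10 measured B cell markers 3 were above WT in both L-DKO libraries and 3 below, and of the 21 myeloid markers 8 were above and 3 below. Cd74, the invariant chain of MHC class II, read 4.47 in WT and 3.21 and 3.03 in L-DKO (-1.35 ± 0.30), and H2-Aa 2.46 against 1.30 and 1.00. The complement genes C1qb and C1qc, made by macrophages, read 1.14 against 2.35 and 2.23, and 1.75 against 2.81 and 2.73, and Apoe 6.77 against 7.27 and 7.52, while the neutrophil genes S100a8 and S100a9 read 1.78 against 1.53 and 1.05, and 1.27 against 0.41 and 0.19. Epcam, an adhesion molecule of epithelium that thymocytes also carry, read 2.59 in WT and 4.03 and 3.40 in L-DKO. All of these but Epcam were highest in the pTαKO library. The globin gene Hba-a1 read 8.70 in WT, 8.58 in L-DKO replicate 1 and 10.85 in replicate 2, with 10.61 in pTαKO and 10.81 and 9.99 in LP, so the L-DKO libraries lay on both sides of WT.

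**Figure D4:**
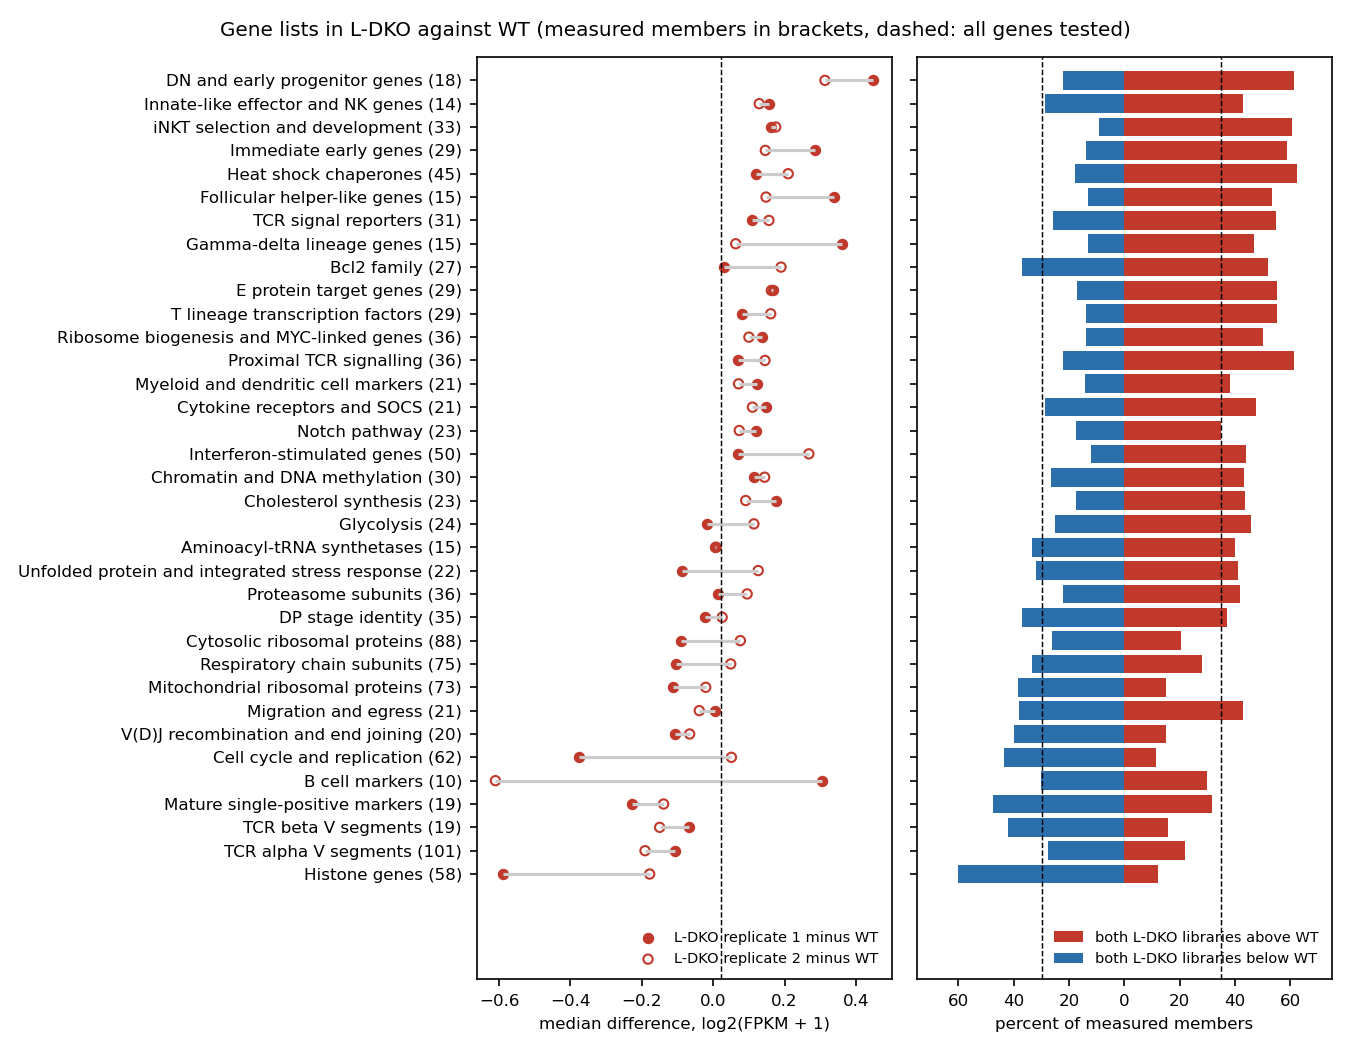
Left, the median difference from WT over the members of each list, 1 symbol per L-DKO library, on the log2(FPKM + 1) scale. Right, the percent of measured members with both L-DKO libraries above WT (to the right) or below it (to the left). Dashed lines mark all genes tested, which are 0.02 on the left and 34.9% and 29.7% on the right. Histone, cell cycle and V(D)J recombination genes reach farther to the left, and iNKT, chaperone, proximal TCR and DN genes farther to the right, than all genes.

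DP identity and housekeeping lists had medians near the 0.02 of all genes, while V(D)J recombination and receptor segment lists lay farther from it. DP stage identity genes split evenly, with 13 of 35 above WT in both L-DKO libraries and 13 below, and a median of 0.01. Cytosolic ribosomal proteins (88 genes, median 0.00), respiratory chain subunits (75 genes, -0.04) and proteasome subunits (36 genes, 0.03) were centred on 0. Both L-DKO libraries were above WT for 20.5%, 28.0% and 41.7% of them, against 34.9% of all genes. Both were below WT for 26.1%, 33.3% and 22.2%, against 29.7%. Of the 20 measured genes of V(D)J recombination and end joining, 3 were above WT and 8 below, with a median of -0.13. Rag2 read 6.61 in WT and 6.51 and 6.96 in L-DKO. TCR alpha V segments, of which 101 were measured, had 22 above (21.8%) and 28 below (27.7%), with a median of -0.26. Trav11 and Trav11d, the V segments of the iNKT receptor, were high in L-DKO replicate 1 and at or near 0 in replicate 2 (1.99 in WT against 2.65 and 0.00, and 1.92 against 2.95 and 0.24). The 7 measured alpha J segments had 5 above WT in both libraries (71.4%) and 0 below, with a median of 0.32.

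LP and pTαKO share no library with this comparison and allow the same Id2 and Id3 deletion to be read on a second background, 2 libraries against 1. Of the 204 genes higher in L-DKO, both LP libraries were at least 2-fold above pTαKO for 31 (15.2%, against 2.42% of all genes) and at least 2-fold below it for 17 (8.33%, against 3.26%). Of the 261 lower genes, 38 were at least 2-fold lower in both LP libraries (14.6%, against 3.26%) and 18 higher (6.9%, against 2.42%). Both directions were thus above their background. Without regard to size, LP lay above pTαKO for 39.2% of the higher genes (33.9% of all genes) and below it for 44.1% of the lower genes (35.3% of all genes). Each of these shares mixes genes of low level, and no test was made. The list medians of LP minus pTαKO had the L-DKO direction for iNKT selection (0.185), TCR signal reporter (0.41), immediate early (0.24), cell cycle (-0.47) and histone genes (-0.44). They did not for E protein target (-0.04), DN (-0.21) and interferon-stimulated genes (-0.205). The median of all genes was -0.005, and these medians were not tested either. The pTαKO library also held more of other cells, with a summed FPKM of myeloid markers of 1110 against 493 and 479 in LP, and of B cell markers of 782 against 417 and 399. The LP libraries differed in the Y-linked Ddx3y (4.21 and 0.63, with 0.68 in pTαKO). The part of these differences in the shares was not tested.

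**Figure D5:**
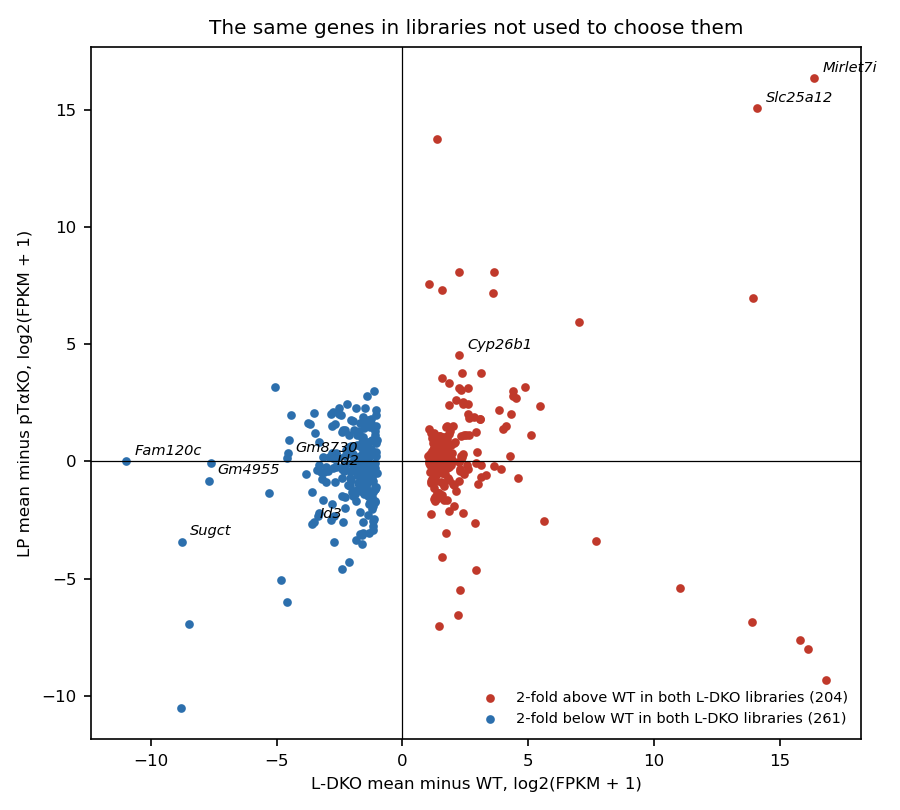
Each point is 1 of the 204 genes at least 2-fold above WT or the 261 at least 2-fold below WT in both L-DKO libraries. The x axis gives the L-DKO mean minus WT, which chose the genes, and the y axis the LP mean minus pTαKO, both on the log2(FPKM + 1) scale. Cyp26b1, Mirlet7i and Slc25a12 are in the upper right and Id3 and Sugct in the lower left, while Fam120c and Gm8730 lie near 0 on the y axis.

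In 23 genes (0.191%) all 4 libraries with Id deletion were at least 2-fold above both WT and pTαKO, and in 19 (0.158%) at least 2-fold below. Gadd45g read 0.74 in pTαKO and 4.07 and 3.65 in LP, close to the L-DKO values. Bach2 read 1.27 in pTαKO and 5.13 and 4.91 in LP. Cyp26b1 read 0.52 in pTαKO and 5.11 and 5.01 in LP, above L-DKO. These 3 genes are among the 23, so the lack of overlap in them follows from how the 23 were chosen. Kcnf1, Cntnap1 and Rps3a3 belong to the same 23, as do Fcrl1, an Fc receptor-like gene (0.06 in WT, 0.09 in pTαKO and 1.56 to 2.02 in the 4 others), and, chosen after their values were seen, Klk8, a serine protease (0.45 and 0.06 against 2.18 to 3.74), and Nrgn, a calmodulin-binding protein (1.71 and 1.25 against 2.71 to 5.30). The 19 lower genes include Id3 (5.25 in pTαKO, 1.96 and 3.18 in LP) and Sugct (8.59 in pTαKO, 3.73 and 6.61 in LP). Chosen after their values were seen, Cdc25c, a phosphatase that opens mitosis (3.02 and 4.80 against 0.00 to 0.79), and Tgm2, a transglutaminase (2.42 and 3.63 against 1.04 to 1.26), are also among the 19. Id2 was not among them, since pTαKO read 1.87 and LP 1.92 and 0.99.

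Other genes high in L-DKO against WT did not separate that way. Dtx1 read 7.50 in pTαKO and 7.30 and 7.70 in LP, Sertad4 6.55 against 6.34 and 6.45, and Xbp1 7.60 against 8.0 and 7.85, so that WT was below all 5 other libraries for each of them. Hspa8 read 8.56 in pTαKO and 9.08 and 8.62 in LP, above pTαKO by less than the L-DKO difference. The test of whether the Id deletion differed on the pTα-deficient background (the LP difference less the L-DKO difference) passed for 1 of the 226 genes named by the rule, Gm8730 (4.75 ± 0.23, limma adjusted p = 0.016). Gm8730 was named because its L-DKO difference was called, and the same difference enters this test. The pass is therefore not independent of the naming.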

How the data were processed

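Libraries came from oligo(dT)-selected RNA, with random hexamer priming and paired-end sequencing. The submitters' processing notes name Trimmomatic 0.32 for trimming, TopHat2 2.0.9 for alignment on mm10 and Cufflinks 2.2.0 for quantification. The authors deposited log2 FPKM per the file headers, after removing low-quality genes by a rule that is not stated. From the values the scale was taken as log2(FPKM + 1). The deposited columns of group means (2) and of differences between groups (3) were not used, and pTαKO replicate 1 was not analysed here.

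Of 13097 entries with 12092 symbols, the entry of highest mean FPKM was kept per symbol, hyphens were restored in 467 symbols, and 12063 genes stayed in the test after a minimum mean FPKM of 0.5. One mean per group was fitted to 6 libraries with limma 3.58.1 (R 4.3.3, eBayes with trend, 2 residual and 2.88 prior degrees of freedom) and p values were adjusted by Benjamini-Hochberg. The code was tested on simulated data. Depth is unknown, so no counting interval is given. Each library is 1 mouse.

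The members and gene lists were chosen with earlier results of these data known. Genes were named by rule: the targeted genes, Hspa8 and E proteins, all calls, up to 15 genes per direction with the widest gap and no 0 (leaving out unnamed models, small RNAs and receptor segments), 6 entries with a 0, up to 5 leading members per list and members that show what a list did. Promoters and coordinates are from RefSeq tables of GRCm38.p6. Alternatives changed the pseudocount, filter, scaling, trend, libraries and the entry kept.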

Additional observations from a re-analysis of the deposited data

Results flagged for a closer look

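Gm8730, an annotated pseudogene, differed between the 2 backgrounds by a test of the difference itself, which rests on 1 WT and 1 pTαKO library. It read 8.55 in WT and 3.90 and 4.00 in L-DKO, but 7.89 in pTαKO and 8.10 and 7.98 in LP. The difference LP minus pTαKO was 4.75 ± 0.23 above that of L-DKO minus WT (limma adjusted p = 0.016). LP minus pTαKO itself was 0.15 and L-DKO minus WT -4.60. The latter, for which the gene was named, thus made up most of the value tested. With no trend in the variance the call was lost.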

How the results depend on the processing

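The counts of called genes depended on the settings. Genes called higher by limma numbered 1 with log2(FPKM + 5), with quantile normalization and with the entry of highest minimum, 0 without the variance trend (275 at unadjusted p under 0.05), 8 with only the L-DKO and WT libraries in the fit, and, in an alternative chosen after seeing the data, 0 among genes with no value of 0 (276 at unadjusted p under 0.05). Genes called lower numbered 0 without the trend (288 at unadjusted p under 0.05). Leaving out 1 library gave 0 to 8 genes called higher and 0 to 5 called lower, and 519 to 685 genes at least 2-fold higher and 570 to 771 lower. Genes at least 2-fold higher or lower in both L-DKO libraries numbered 396 and 406 with log2(FPKM + 0.1), and 66 and 84 with log2(FPKM + 5). The interaction passed for 0 of the 226 named genes without the trend (56 at unadjusted p under 0.05). Many of these genes were named for a wide gap between L-DKO and WT, and that difference enters the interaction. The share over all genes was not counted, so the 56 cannot be read as a result. Of 226 named genes 3 changed sign: Cenph (-0.78) and H2-Q3 (-0.32) with the entry of highest minimum, and Trdc (-0.002) with quantile normalization. The cause was not tested. Medians of 46 lists were above that of all genes for 29, and for 29 to 32 under the alternatives, and 17 medians crossed 0 somewhere, among them the cell cycle, Notch and B cell lists. No paired analysis was possible because WT has 1 library and the compared groups share no 2 replicate numbers. With 1 WT library, a WT value that stands alone cannot be told apart from the genotype.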
